A study of Mus musculus with 2 samples.

Results

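The genes described here are 42 genes of intraflagellar transport and of the basal body, the parts that build and serve the cilium. They were taken by symbol from a fixed list and with no filter on measured values. Earlier results of these data were known when that choice was made. All 42 are among the 32285 genes counted in each library. By complex they comprise 7 genes of the IFT-B core, 4 of peripheral IFT-B, 3 of IFT-A, 5 motor subunits, 7 BBSome subunits, 2 ciliary GTPases, 4 appendage genes, 2 centriolar satellite genes and 8 transition zone genes. They were measured in Mut, the cortex of mice at postnatal day 5 labelled as Katnal2 mutants, and in WT, the cortex of mice labelled as wild type at that day. Both tissues were digested with trypsin and then with collagenase, and single cells were sorted before droplet capture. The sources used here do not give the part of Katnal2 that is mutated, the sort gate, or the strain, sex and number of animals. The design text speaks of 3 replicates, but each genotype is 1 library, so no test was possible and no difference can be assigned to genotype. Intervals given below are exact 95% intervals that cover counting error only, and the limit given for 0 UMIs is the level of 3 UMIs.

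Cilia are assembled at a basal body, a centriole docked to the membrane by its distal appendages. Trains of IFT-B and IFT-A particles carry cargo along the axoneme, outward with kinesin-2 and back with dynein-2, while the BBSome moves membrane proteins and the transition zone gates the base. Most neurons and glia of the cortex carry a solitary primary cilium, ependymal cells of the ventricle wall carry many motile ones, and most immune cells are described as having none. Katnal2, which encodes a relative of the microtubule-severing enzyme katanin, stood at 85.2 counts per 1000000 UMIs (CPM; 24 UMIs, interval 54.6 to 127) in multiciliated barcodes of Mut and at 65.2 (11 UMIs, 32.5 to 117) in those of WT. In astroglia it stood at 5.15 CPM (4.51 to 5.86) in Mut and 3.96 CPM (3.38 to 4.61) in WT. Katnal2 RNA was counted in both libraries, so its level does not check the genotype label.

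Barcodes with at least 1000 unique molecular identifiers (UMIs), 500 genes and at most 20% mitochondrial UMIs were kept, 10102 in Mut with a median of 7625.5 UMIs and 11024 in WT with a median of 6446. The libraries share 39 kept barcodes, 0.386% of those of Mut and 0.354% of those of WT. Barcodes were sorted into 14 classes by counting 8 marker genes a class, none of them among the 42. A class name below means barcodes that pass this rule, that is, barcodes like that cell type. Multiciliated barcodes hold at least 5 of 8 markers such as Foxj1, the master regulator of motile cilia. They number 21 in Mut and 15 in WT, and 3 in each library sit at the limit of 5 markers. Their median barcode holds 8 multiciliated markers in Mut and 7 in WT, with 3 astroglia markers in each and 1 choroid plexus marker in WT only. Mut held 4564 barcodes of astroglia, 1811 of oligodendrocyte precursors and 1135 of GABAergic neurons, and WT held 4815, 2017 and 1658 of these. Barcodes with markers of excitatory neurons, the main neurons of the cortex, were few, 40 in Mut and 39 in WT. In the 7 classes with at least 100 barcodes in each library, 4.64% to 15.8% of the barcodes sit at the limit of the rule, and border-associated macrophages hold a median of 4 microglial markers in Mut and 3 in WT. Of the multiciliated barcodes, 10 of 21 in Mut and 7 of 15 in WT also hold at least 4 of 10 markers of dividing cells, and a doublet caller marked 1, in WT.

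In the multiciliated barcodes nearly the whole apparatus was high. Summed over the 42 genes, the level was 7639 CPM (7320 to 7969) in multiciliated barcodes of Mut and 1440 CPM (1429 to 1451) in its astroglia. In WT it was 7516 CPM (7108 to 7941) in multiciliated barcodes and 1441 CPM (1430 to 1453) in astroglia. Against all other assigned barcodes, 39 of the 40 genes with at least 10 UMIs in multiciliated barcodes of both libraries together were at least 2-fold higher in both libraries. Among all genes so filtered 21.8% were, and among genes with at least 100 UMIs in the other barcodes of each library, a filter that does not look at the multiciliated class, 11.3% were. By the second filter 41 of the 42 genes were kept and 38 were higher. The median ratio over the 42 genes was 7.41 in Mut and 6.87 in WT, against 1.14 in Mut and 1.17 in WT over all genes tested.

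Single barcodes spread widely in both libraries. The summed level ran from 3116 CPM through a median of 8105 to 11681 CPM over the 21 multiciliated barcodes of Mut, and from 2727 through 8657 to 10864 CPM over the 15 of WT. Astroglia had medians of 1402 CPM in Mut and 1399 CPM in WT. A median of 29 of the 42 genes was detected per multiciliated barcode in each library, against 9 in astroglia of Mut and 8 in those of WT. Barcodes just outside the rule, with 3 or 4 multiciliated markers, lay between, with medians of 2251 CPM over 21 barcodes in Mut and 3004 CPM over 28 in WT. Their make-up differed between the libraries: 7 of those of Mut and 0 of those of WT were assigned to the choroid plexus, and the doublet caller marked 8 in Mut and 3 in WT. Without the multiciliated barcodes that hold at least 4 dividing markers, 11 remained in Mut and 8 in WT. In these, 32 of the 36 genes measured were at least 2-fold higher in both libraries. The share over all genes was not taken for this smaller set.

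**Figure D1:**
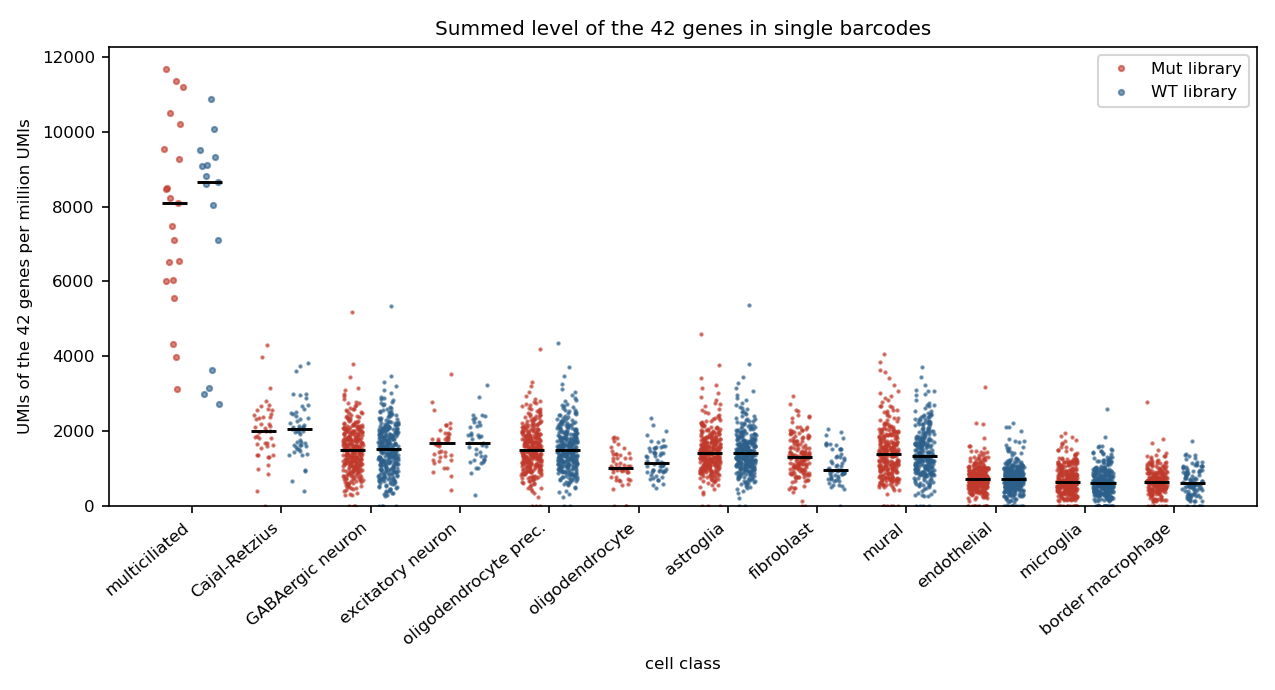
Each point is 1 barcode, Mut left of WT within a class, and the vertical axis gives the UMIs of the 42 genes per 1000000 UMIs of that barcode; bars mark medians. Medians of the multiciliated barcodes lie at 8105 in Mut and 8657 in WT, and those of microglia at 634 in Mut and 595 in WT.

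The IFT-B core forms the stable heart of the transport train, and all 7 of its genes were at least 2-fold higher in multiciliated barcodes of both libraries. Ift88, whose loss abolishes cilia in mice, was at 121 CPM (83.5 to 169) in multiciliated barcodes and 7.51 CPM in the other barcodes of Mut, a ratio of 16.1 (11 to 22.7). In WT it was at 94.8 and 7.53 CPM, a ratio of 12.6 (7.14 to 20.6). Ift74, which binds tubulin together with Ift81, had ratios of 7.86 in Mut and 8.91 in WT, and Ift81 had 7.98 in Mut and 6.37 in WT. The Rab-like GTPases of the core differed: Ift22 had ratios of 8.34 in Mut and 8.17 in WT, while Ift27, which works in the exit of the BBSome from cilia, had 4.20 in Mut and 3.19 in WT. Ift52 was the lowest of the core with 2.59 (1.41 to 4.37) in Mut and 2.81 (1.28 to 5.34) in WT. Of the peripheral subunits, Ift172, known from Chlamydomonas to act in the turnaround at the ciliary tip, reached 16.4 (11.4 to 22.9) in Mut and 13.6 (7.35 to 23.0) in WT. Ift20, the subunit that also resides at the Golgi, had 7.98 in Mut and 7.25 in WT, and Ift57 had 3.11 in Mut and 3.37 in WT. The 3 IFT-A genes lay close together in Mut, with Ift43 at 7.68, Ift140 at 7.33 and Ift122 at 6.62. In WT Ift43 was at 10.3, Ift140 at 7.91 and Ift122 at 6.30.

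The motors ranged widely, mainly through Kif17. Kif17, the homodimeric kinesin-2, had 6 UMIs in multiciliated barcodes and 24 in all other assigned barcodes of Mut, a ratio of 68.3 (22.8 to 171). In WT it had 4 UMIs in multiciliated barcodes and a ratio of 102 (25.1 to 314). It is the highest ratio of the 42 in both libraries and has a wide interval. Dync2h1, the heavy chain of dynein-2, had 418.7 CPM in multiciliated barcodes and 25.5 CPM elsewhere in Mut, a ratio of 16.4 (13.5 to 19.7). Its WT values were 302 and 23.8 CPM, a ratio of 12.7 (9.41 to 16.8). Its partner Dync2li1 had 7.99 in Mut and 5.82 in WT. The heterotrimeric kinesin-2 subunits, which also move cargo in axons, were lower, with Kif3a at 3.50 in Mut and 2.96 in WT and Kif3b at 2.09 (1.17 to 3.46) in Mut and 2.62 (1.31 to 4.70) in WT.

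Of the 7 BBSome genes, 5 were at least 2-fold higher in both libraries, with Bbs2 at 10.1 in Mut and 16.1 in WT and Bbs9 at 10.1 in Mut and 6.83 in WT. Bbip1, the smallest subunit, missed the limit with ratios of 1.67 (1.31 to 2.09) in Mut and 1.63 (1.19 to 2.17) in WT. It was at 273 CPM in multiciliated barcodes of Mut and 272 CPM in those of WT, and already at 199 CPM in astroglia of Mut. Bbs5 could not be judged in both libraries, since it had 7 UMIs in multiciliated barcodes of Mut, a ratio of 5.08 (2.03 to 10.6), and 0 UMIs in those of WT, which allows up to 17.8 CPM. The GTPases Arl6, which recruits the BBSome to membranes, and Arl13b, which decorates the ciliary membrane, had ratios of 4.25 and 4.76 in Mut and 3.79 and 2.57 in WT. Among appendage genes, Cep164 and Cep83 of the distal appendages had 8.86 and 6.21 in Mut and 7.78 and 7.16 in WT. Ttbk2, the kinase that licenses ciliogenesis, had under 10 UMIs in both libraries together and was at 0.925 (0.300 to 2.16) from 5 UMIs in Mut and 1.35 (0.367 to 3.46) from 4 UMIs in WT. Its exons share 3409 bases with Cdan1 on the same strand, so its counts are uncertain.

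All 8 transition zone genes were at least 2-fold higher in both libraries. Tctn2, a tectonic of the ciliary gate, was at 192 CPM (54 UMIs) in multiciliated barcodes and 6.38 CPM elsewhere in Mut, a ratio of 30.0 (22.2 to 39.8). In WT it was at 148 CPM (25 UMIs) and 5.61 CPM, a ratio of 26.4 (16.9 to 39.5). It had a UMI in 19 of 21 multiciliated barcodes of Mut and in 8 of 15 of WT. B9d1 had ratios of 10.8 (8.98 to 12.9) in Mut and 9.08 (7.01 to 11.6) in WT, whereas its B9-domain partner B9d2 had 2.79 in Mut and 2.81 in WT. Mks1, the third B9 protein, had 10.7 in Mut and 8.79 in WT. Cep290, which links membrane and microtubules at the gate, had 9.76 in Mut and 11.7 in WT. Rpgr, an X-linked gene whose human counterpart causes retinal degeneration when mutated, had 9.82 in Mut and 8.84 in WT. The satellite genes Pcm1, their scaffold, and Ofd1 were lower, with 2.93 and 5.24 in Mut and 3.85 and 4.34 in WT.

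**Figure D2:**
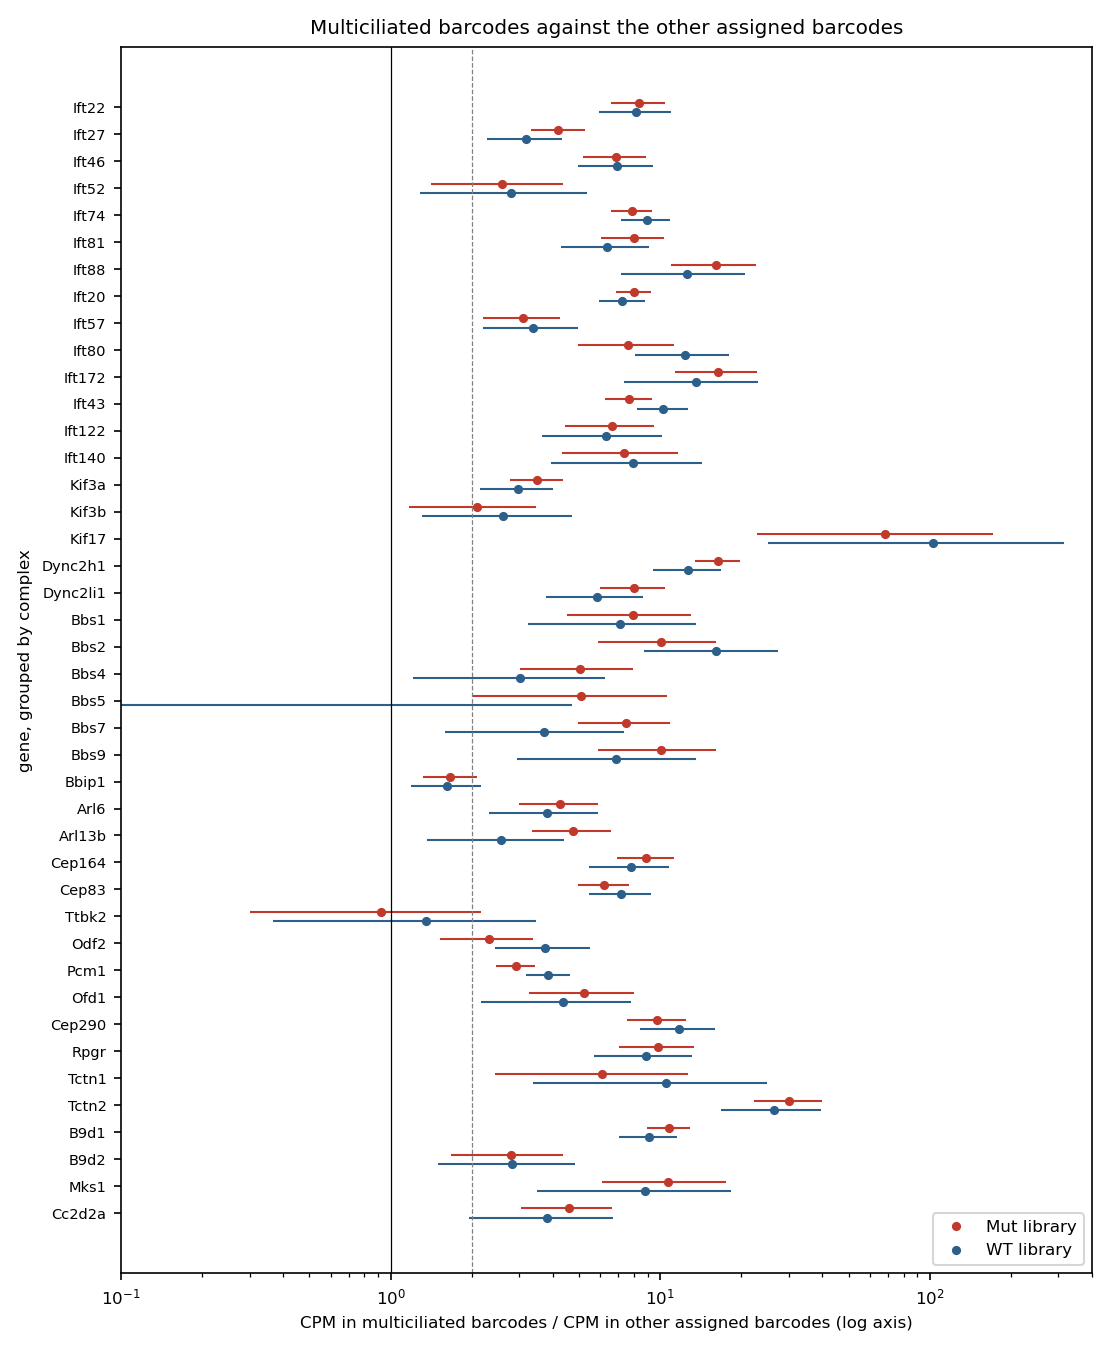
For each of the 42 genes the point gives the CPM in multiciliated barcodes divided by the CPM in all other assigned barcodes, on a log axis, for Mut and for WT; lines are exact 95% intervals of counting error and the dashed line marks 2-fold. The points of Bbip1 and Ttbk2 lie left of the dashed line in both libraries, and Bbs5 has a line but no point in WT, where it has 0 UMIs.

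Other ciliary genes, from a list of 63 that completes these complexes, were set beside them. Of the 47 with at least 10 UMIs in multiciliated barcodes, 40 were at least 2-fold higher there in both libraries, against 21.8% of all genes so filtered. This filter looks at the multiciliated class itself, and the second filter was not applied to this list. Of all 63, 3 were at least 2-fold lower in both libraries. The median ratio over the 63 was 3.83 in Mut and 3.79 in WT. The transition zone gene Tmem107 led with 57.4 in Mut and 59.6 in WT, and Nphp4 had 33.0 in Mut, from 14 UMIs, and 43.1 in WT, from 9 UMIs. Of the 10 genes of ciliary signalling 3 had enough UMIs. Pde6d, which carries lipidated proteins to the cilium, was higher, with 3.83 in Mut and 2.72 in WT, and the hedgehog pathway genes Smo and Gli3 were under 2-fold.

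The promoters of the genes that were high together are shown because motile ciliogenesis is known to be run by FOXJ1 and by RFX factors, whose site in ciliary genes is called the X-box. RefSeq promoter windows (build GRCm38.p6, 250 bases before to 50 after the start) matched 37 of the 42 genes, with 44 windows; Ift81, Ift80, Ift122, Dync2li1 and Pcm1 had none. The X-box was searched as GTNNCC, 0 to 3 bases and GGNNAC, which reads alike on both strands. It lay in 9 of 44 windows (20.5%), against 3.86% of all 32851 windows. The shorter RFX motif GTTGCC, on either strand, lay in 18 of 44 windows (40.9%), against 12.5% of all windows, and 5 of the 9 windows with an X-box hold it inside the X-box. The FOX core TGTTTAC, on either strand, lay in 0 of 44 windows, against 3.65% of all windows. The X-boxes, with all letters in capitals, read as follows in the direction of each gene:
Bbs1: GTTGCCAAGGCGAC
Bbs4: GTCGCCCGGGAAAC
Bbs7: GTTGCCTTGGAAAC
Cep83: GTTTCCCGGGCTAC
Ift22: GTTTCCTGGGCTAC
Ift22: GTCGCCGTGGAAAC
Ift57: GTTGCCGTGGTGAC
Ift57: GTTGCCTGGTAAC
Mks1: GTTGCCAGGGGAAC
Tctn1: GTTGCCCGGGCAAC
Tctn2: GTTACCATGGCTAC

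The 9 genes with an X-box had ratios of 3.11 to 30.0 in Mut, with a median of 7.50, and 3.02 to 26.4 in WT, with a median of 7.16. The 28 matched genes without an X-box had medians of 7.09 in Mut and 6.87 in WT, and the ranges overlap. Whole windows of 3 genes are given, with the X-boxes in capitals, because they span this range: Tctn2 has the highest ratio of the genes with an X-box, Ift57 the lowest in Mut and a pair of X-boxes, and Tctn1 the most symmetric X-box. They lie at chr5:124598499-124598798 on the plus strand (Tctn2), chr16:49699044-49699343 on the plus strand (Ift57) and chr5:122264411-122264710 on the minus strand (Tctn1). The X-boxes begin at -62 in Tctn2, at -87 and -60 in Ift57 and at 37 in Tctn1, counted from the start.
Tctn2: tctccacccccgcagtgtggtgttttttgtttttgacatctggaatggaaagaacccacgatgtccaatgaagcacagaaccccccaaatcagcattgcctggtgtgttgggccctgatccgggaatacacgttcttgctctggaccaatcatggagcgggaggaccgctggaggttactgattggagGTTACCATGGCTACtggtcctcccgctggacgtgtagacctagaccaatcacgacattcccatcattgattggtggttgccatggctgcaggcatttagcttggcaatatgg
Ift57: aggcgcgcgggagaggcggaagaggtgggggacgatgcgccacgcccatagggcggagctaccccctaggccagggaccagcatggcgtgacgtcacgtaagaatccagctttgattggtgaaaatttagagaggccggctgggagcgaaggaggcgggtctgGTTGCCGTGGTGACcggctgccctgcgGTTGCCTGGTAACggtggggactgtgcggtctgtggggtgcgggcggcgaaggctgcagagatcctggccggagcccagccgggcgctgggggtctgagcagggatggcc
Tctn1: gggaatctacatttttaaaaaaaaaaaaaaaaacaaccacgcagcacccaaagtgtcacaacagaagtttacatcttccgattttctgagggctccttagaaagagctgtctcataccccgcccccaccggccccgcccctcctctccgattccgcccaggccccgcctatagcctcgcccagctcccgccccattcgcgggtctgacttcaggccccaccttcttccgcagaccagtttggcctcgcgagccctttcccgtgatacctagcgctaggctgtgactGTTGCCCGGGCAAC

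Outside the multiciliated class, the summed level of the 42 genes was close in astroglia, oligodendrocyte precursors and GABAergic neurons and lower in immune and endothelial cells. It was 1565 CPM in GABAergic neurons and 1554 CPM in oligodendrocyte precursors of Mut, against 1586 and 1565 CPM in these classes of WT. In Mut it was 1414 CPM in mural cells, 737 in endothelial cells, 704 in microglia and 661 in border-associated macrophages. In WT it was 1423 CPM in mural cells, 747 in endothelial cells, 648 in microglia and 664 in border-associated macrophages. Among small classes it was 1121 CPM in oligodendrocytes of Mut and 1212 in those of WT, 1730 in excitatory neurons of Mut and 1817 in those of WT, 1920 in Cajal-Retzius barcodes of Mut and 1959 in those of WT, and 499 in leukocytes of Mut and 478 in those of WT. The order of the 7 classes with at least 100 barcodes in each library was taken over genes with at least 100 UMIs in them in each library, which are 41 of the 42. The highest class was the same in both libraries for 30 of the 41, against 80.8% of all such genes. It was GABAergic neurons for 12 (20.2% of all), oligodendrocyte precursors for 9 (19.7%) and astroglia for 6 (10.8%). The lowest class was microglia, border-associated macrophages or endothelial cells in both libraries for 35 of the 41, against 52.4% of all. Class sums cannot tell fewer expressing cells from less RNA per cell. Levels are compared here within a gene across classes and not between genes.

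**Figure D3:**
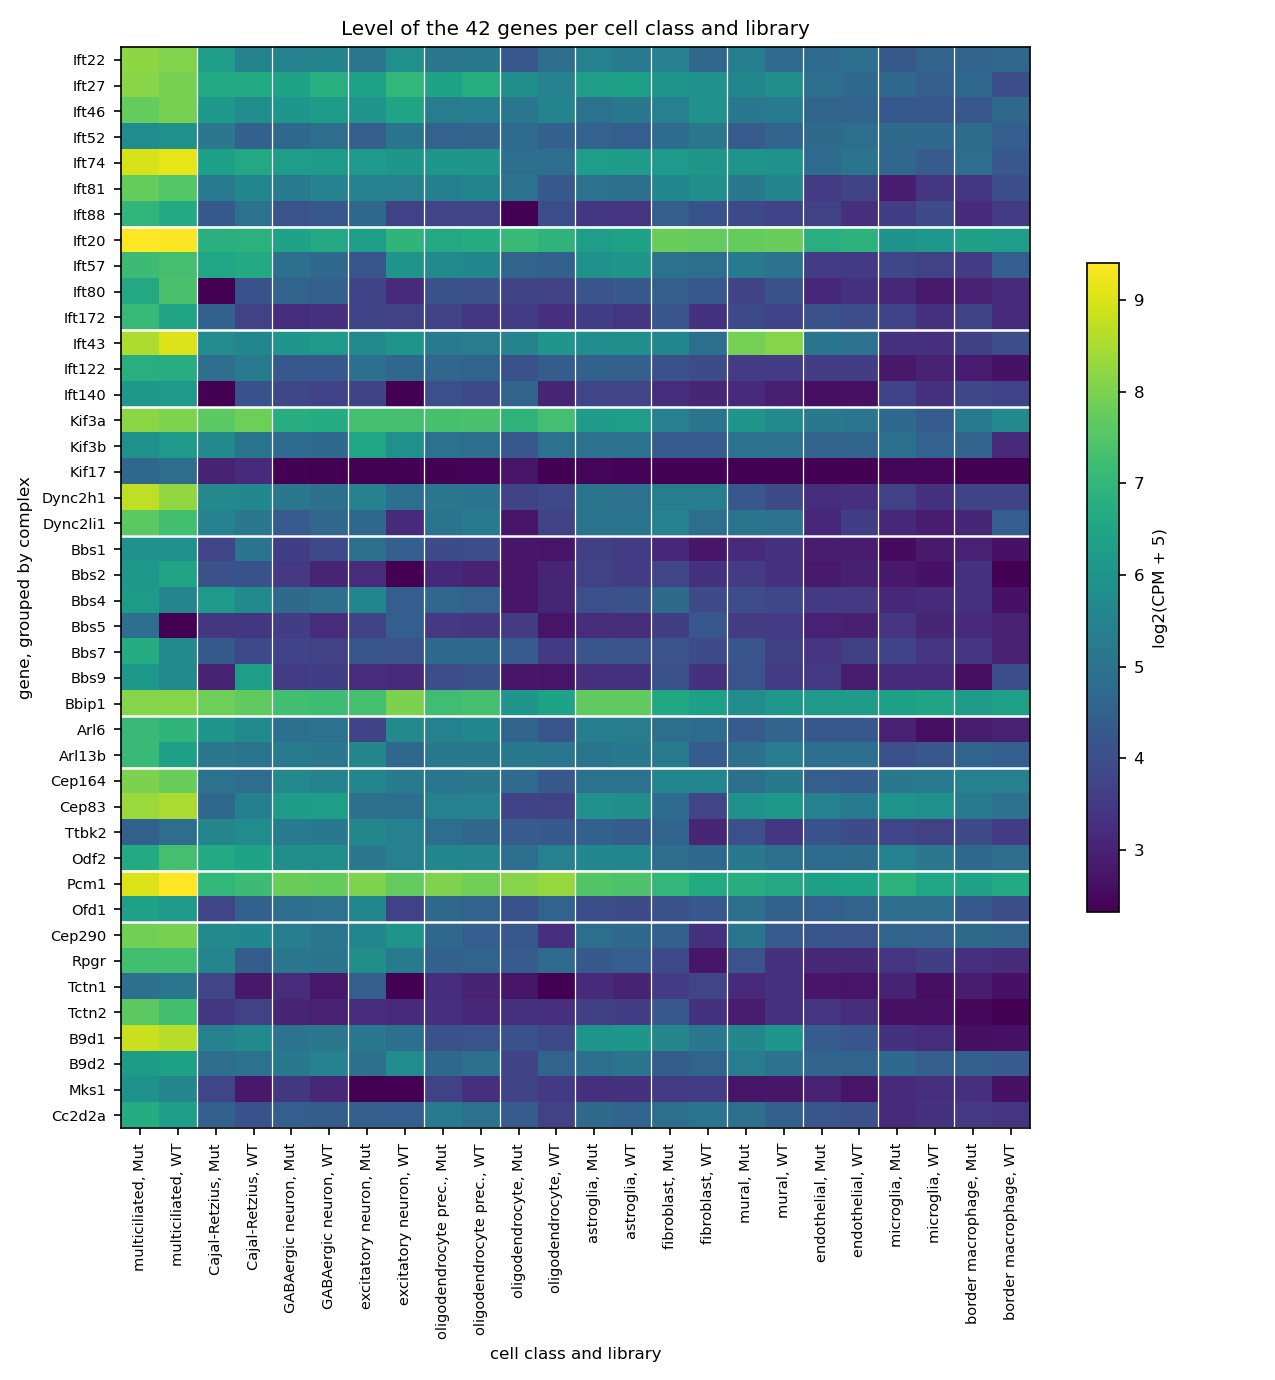
Colour gives log2(CPM + 5) of each of the 42 genes, in rows grouped by complex, for each cell class other than leukocytes and choroid plexus, with Mut left of WT. The multiciliated columns are the brightest for most genes, Ift43 and Ift20 are bright in mural cells as well, and the columns of microglia, border-associated macrophages and endothelial cells are darker than those of astroglia for most genes.

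Several members had a class of their own. Ift43, a small IFT-A subunit, was at 237 CPM (212 to 266) in mural cells of Mut and 274 CPM (245 to 306) in those of WT. In astroglia it was at 50.7 CPM in Mut and 52.7 CPM in WT, so mural cells were 4.69-fold (4.15 to 5.29) higher in Mut and 5.21-fold (4.62 to 5.86) higher in WT. The other IFT-A genes ran the other way in mural cells, with Ift122 at 0.389 of the astroglial level in Mut and 0.385 in WT, and Ift140 at 0.433 (0.140 to 1.02) in Mut and 0.284 (0.058 to 0.836) in WT. Ift20 was at 206 CPM in mural cells of Mut and 216 CPM in those of WT, 2.81-fold the astroglial level in Mut and 2.74-fold in WT. It was at 215 CPM in the 156 fibroblast barcodes of Mut and 205 CPM in the 58 of WT. Bbip1 was lowest in mural cells, at 0.255 of the astroglial level in Mut and 0.320 in WT. In mural cells 2 of the 41 genes measured in astroglia were at least 2-fold higher in both libraries and 4 lower, the fourth being Mks1, against 8.71% of all genes higher and 21.1% lower.

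Kif3a, the motor subunit shared by all forms of heterotrimeric kinesin-2, was, among the 7 classes, highest in oligodendrocyte precursors, at 156 CPM (149 to 164) in Mut and 160 CPM (153 to 168) in WT, 2.25-fold the astroglial level in Mut and 2.22-fold in WT. It was at 192 CPM in the 43 Cajal-Retzius barcodes of Mut and 223 CPM in the 51 of WT. Bbs9, a BBSome subunit, was 2.14-fold higher in oligodendrocyte precursors of Mut and 2.24-fold in those of WT. B9d1 was lower there, at 0.201 (0.168 to 0.239) in Mut and 0.209 (0.177 to 0.245) of the astroglial level in WT, and Bbs2 was at 0.481 in Mut and 0.451 in WT. These 2 higher and 2 lower genes of 41 compare with 11.2% of all genes higher and 10.6% lower in oligodendrocyte precursors. In GABAergic neurons Ift46, Ift88 and Ofd1 were at least 2-fold higher in both libraries, with Ift46 at 60.9 CPM in Mut and 67.2 CPM in WT, 2.27-fold the astroglial level in Mut and 2.13-fold in WT. Ift57, Tctn2 and B9d1 were at least 2-fold lower there, with Ift57 at 0.462 of the astroglial level in Mut and 0.369 in WT. Over all genes 13.7% were higher and 21.5% lower in GABAergic neurons, so the 3 higher and 3 lower of 41 are smaller shares than those of all genes. Rpgr was at 29.6 CPM in GABAergic neurons of Mut and 27.7 CPM in those of WT, against 14.7 CPM in astroglia of Mut and 16.9 CPM in those of WT.

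**Figure D4:**
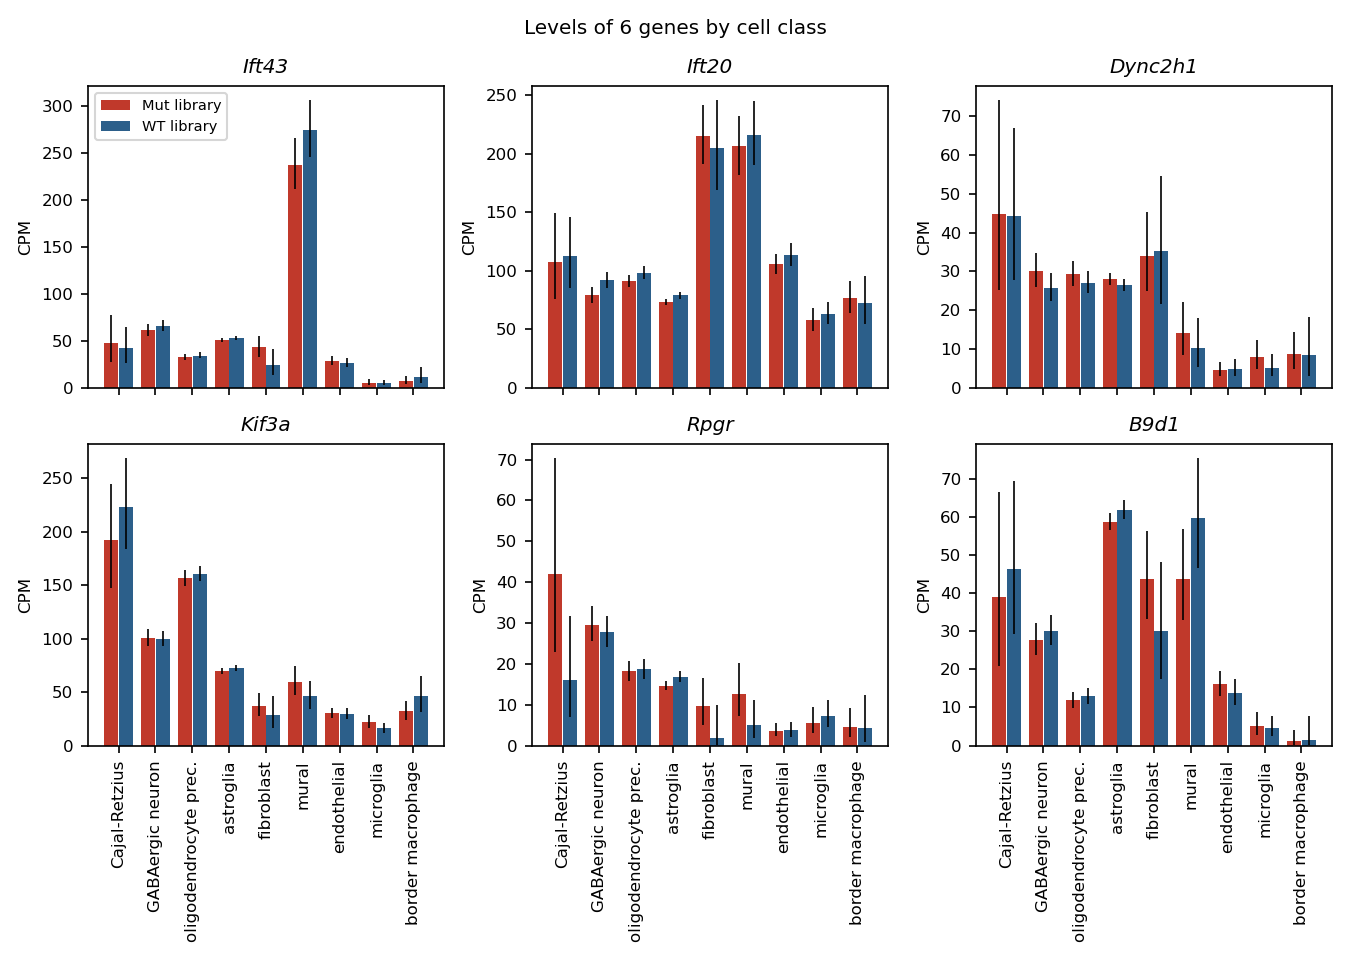
Bars give CPM with exact 95% intervals of counting error for 6 genes in 9 cell classes, Mut left of WT. Ift43 stands highest in mural cells, Ift20 in fibroblasts and mural cells, Kif3a in Cajal-Retzius barcodes and oligodendrocyte precursors, and B9d1 in astroglia and, in WT, at a like level in mural cells.

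In microglia 20 of the 41 genes measured in astroglia were at least 2-fold lower in both libraries, against 31.2% of all genes. The median ratio over all 42 genes was 0.452 in Mut and 0.440 in WT. Over all genes with at least 100 UMIs in astroglia of each library it was 0.752 in Mut and 0.712 in WT. Arl6 was at 0.079 (0.032 to 0.164) of the astroglial level in Mut and 0.031 (0.006 to 0.090) in WT, from 7 and 3 UMIs. In Mut B9d1 was at 0.089, Ift43 at 0.103, Dync2li1 at 0.128 and Ift57 at 0.166 of the astroglial level, and in WT B9d1 was at 0.073, Ift43 at 0.093, Dync2li1 at 0.086 and Ift57 at 0.134. None of the 4 appendage and 2 satellite genes was among the 20. The list of 63 other ciliary genes holds further genes of appendages, satellites and centrioles. Of these, Fbf1, Cep19, Cep131, Ssx2ip and Cby1 were at least 2-fold lower in microglia of both libraries, and Cntrl was at least 2-fold higher. Cep164 was at 1.13 (0.883 to 1.43) in Mut and 1.24 (0.990 to 1.53) in WT, and Cep83 at 1.06 in Mut and 1.02 in WT. Odf2, the scaffold of the mother centriole's appendages, was at 0.870 in Mut and 0.716 in WT. Ttbk2 was at 0.497 in Mut and 0.503 in WT, and Pcm1 at 0.645 in Mut and 0.512 in WT. Ofd1, of satellites and centriole ends, was higher in microglia, at 24.0 CPM in Mut and 23.7 CPM in WT against 11.1 CPM in astroglia of Mut and 10.3 CPM in those of WT. It is 1 of 41 genes at least 2-fold higher, against 9.63% of all genes.

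Border-associated macrophages had 17 of 41 genes at least 2-fold lower in both libraries, against 32.3% of all genes, and 0 higher, against 9.7%. B9d1 was at 0.020 (0.002 to 0.072) of the astroglial level in Mut, from 2 UMIs, and at 0.023 (0.001 to 0.126) in WT, from 1 UMI. In endothelial cells 17 of 41 genes were at least 2-fold lower, against 26% of all genes, and 0 higher, against 9.02%. Ift57 was at 6.80 CPM (4.83 to 9.29) in endothelial cells of Mut and 6.57 CPM (4.49 to 9.27) in those of WT, against 55.5 CPM in astroglia of Mut and 59.6 CPM in those of WT. Dync2h1 was at 0.162 (0.105 to 0.238) of the astroglial level in Mut and 0.186 (0.119 to 0.279) in WT. Ift20, by contrast, was above it, at 1.44 in each library. Of the 63 other ciliary genes, 55 were measured in astroglia, and 31 of those were at least 2-fold lower in microglia, 27 in border-associated macrophages and 23 in endothelial cells.

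Free RNA puts a floor under these low levels. In barcodes of 10 to 100 UMIs the 42 genes summed to 1194 CPM in Mut and 1137 CPM in WT. Microglia stood at 58.9% of that level in Mut and 57.0% in WT, border-associated macrophages at 55.3% in Mut and 58.4% in WT, and endothelial cells at 61.7% in Mut and 65.7% in WT. A set of 5 glial genes, which these cells should lack, stood in microglia at 5.39% of its free level in Mut and 3.50% in WT. It stood at 3.71% in border-associated macrophages of Mut and 3.89% in those of WT, and at 2.66% in endothelial cells of Mut and 2.75% in those of WT. Most of the 42 genes were above that share. In microglia Arl6 came closest to it, at 9.24% of its free level in Mut and 4.23% in WT. At or below the glial share were 0 genes in microglia of either library, 2 in border-associated macrophages of Mut (B9d1 and Kif17) and 4 in those of WT (B9d1, Bbs2, Kif17 and Tctn2), and 0 in endothelial cells of Mut and 1 in those of WT (Kif17). These values are read as background. Kif17 had 0 UMIs in border-associated macrophages of both libraries, and Bbs2 and Tctn2 had 0 in those of WT, where 0 UMIs allow up to 4.20 CPM.

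In the 7 classes, 225 pairs of a gene and a class had at least 30 UMIs, and 5 were past 1.5-fold between Mut and WT after adding 5 CPM. In astroglia 0 of 41 genes passed (0.302% of all genes did), with log2 ratios of Mut over WT of -0.20 to 0.19 and a median of 0.02, against 0.03 over all genes. In oligodendrocyte precursors 0 of 41 passed (0.289% of all genes), from -0.32 for Ift27 to 0.43 for Mks1. In GABAergic neurons 0 of 41 passed (0.672%), from -0.36 for Ift27 to 0.43 for Bbs2. Ift27 was at 79.5 CPM in GABAergic neurons of Mut and 103 CPM in those of WT, a ratio of 0.771 (0.688 to 0.862). In oligodendrocyte precursors it was at 79.4 CPM in Mut and 101 CPM in WT, a ratio of 0.790 (0.725 to 0.861). In microglia 0 of 25 passed (3.58% of all genes).

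The 5 pairs past the fold were higher in Mut and rest on few UMIs. With barcodes thinned to 1000 UMIs 4 pairs passed, 2 of them higher in Mut and 0 of them among the 5. Each of the 5 was still past 1.5-fold when thinned but had under 30 UMIs, and Cep290 had turned lower. In border-associated macrophages 3 of 17 genes passed (10.3% of all genes): Kif3b with 34 UMIs in Mut and 3 in WT, a ratio of 4.71 (1.48 to 24.0), Ift27 with 36 UMIs in Mut and 8 in WT and a ratio of 1.87 (0.855 to 4.66), and Ift74 with 42 UMIs in Mut and 10 in WT and a ratio of 1.75 (0.862 to 3.90). The intervals of Ift27 and Ift74 include 1. Thinned, the log2 ratios were 1.48 for Kif3b, 2.86 for Ift27 and 1.29 for Ift74, against 1.43, 0.68 and 0.63 as reported. In endothelial cells Bbs9, 1 of 35 genes (1.18% of all genes), had 37 UMIs in Mut and 12 in WT, a ratio of 2.62 (1.34 to 5.52). Its log2 ratio of 0.62 was 0.49 under a stricter marker rule and 0.57 with the highest doublet scores removed, both under the 1.5-fold limit. It was 1.02 when thinned, 0.68 in barcodes with Xist only and 0.64 in those with Y-linked UMIs only, each from under 30 UMIs. In mural cells Cep290, 1 of 25 genes (6.27% of all genes), was at 28.9 CPM in Mut and 15.3 CPM in WT, a ratio of 1.88 (1.05 to 3.52), and the thinned log2 ratio was -0.82, against 0.74 as reported. Summed over the 42 genes, the level in Mut was 1.02 times (0.948 to 1.09) that in WT in multiciliated barcodes, 1.09 times (1.02 to 1.16) in microglia and 1.18 times (1.08 to 1.29) in fibroblasts. The median log2 ratio over all genes tested in microglia was 0.09, so it was above 0 as well. The IFT-B core in Mut was at 0.888 (0.838 to 0.940) of the WT level in GABAergic neurons and at 0.903 (0.861 to 0.947) in oligodendrocyte precursors. Ift27 made up much of this difference. In GABAergic neurons the core summed to 316 CPM in Mut and 356 in WT, with Ift27 at 79.5 and 103. In oligodendrocyte precursors the core summed to 270 CPM in Mut and 299 in WT, with Ift27 at 79.4 and 101. In oligodendrocyte precursors other complexes ran the other way, with satellite genes at 1.09 (1.03 to 1.14) and transition zone genes at 1.11 (1.03 to 1.19). The satellite sum was nearly all Pcm1, at 256 of 276 CPM in Mut and 235 of 254 CPM in WT.

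**Figure D5:**
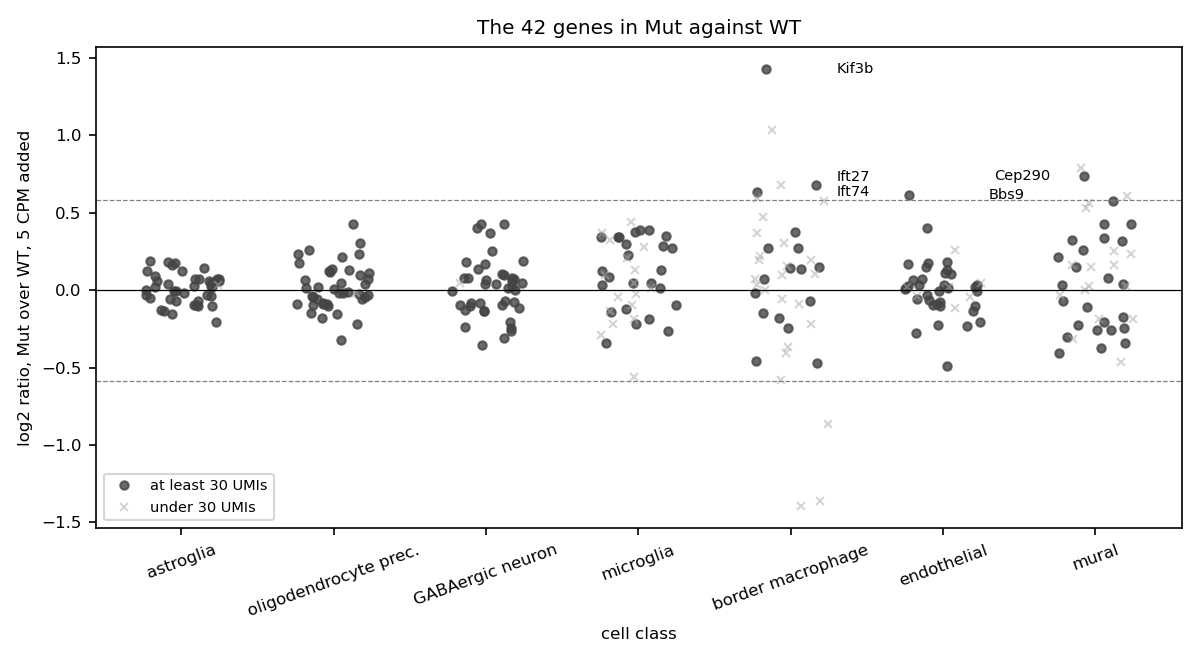
Each mark is 1 of the 42 genes in 1 of 7 cell classes, and the vertical axis gives the log2 ratio of Mut over WT after adding 5 CPM; filled points have at least 30 UMIs, crosses fewer, dashed lines mark 1.5-fold and the 5 points past them are named. Points of astroglia lie between -0.20 and 0.19.

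Dividing barcodes, with at least 4 of 10 division markers, were set against barcodes with 0 of them within 3 classes, since the mother centriole that carries appendages also serves the spindle. In astroglia 3 of 41 genes were past 1.5-fold higher in both libraries (7.11% of all genes were) and 0 lower (2.42%). In oligodendrocyte precursors 2 of 40 were higher (6.84%) and 0 lower (2.22%), and in GABAergic neurons 8 of 35 were higher (11%) and 0 lower (9.69%). With barcodes thinned to 1000 UMIs, 5 pairs of a gene and a class were higher and 4 lower, of 66: Dync2li1 and Bbs4 were lower in astroglia, Cep164 in oligodendrocyte precursors and Kif3a in GABAergic neurons. In the thinned set Cep83 alone was higher in astroglia, and Ift80, Cep290 and Odf2 did not pass there. As reported, Odf2 passed in all 3 classes. In astroglia it was at 71.6 CPM in dividing and 36.6 CPM in non-dividing barcodes of Mut, a ratio of 1.96 (1.77 to 2.16), and at 66.9 CPM in dividing and 34.0 CPM in non-dividing barcodes of WT, a ratio of 1.97 (1.77 to 2.19). In GABAergic neurons its ratios were 3.31 (2.49 to 4.44) in Mut and 3.33 (2.61 to 4.29) in WT.

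The others that passed were Ift80 and Cep290 in astroglia, Ift27 in oligodendrocyte precursors, and Ift27, Ift74, Ift80, Ift122, Cep83, Cep290 and B9d1 in GABAergic neurons. Ift80 had ratios of 3.98 (2.41 to 6.92) in dividing GABAergic neurons of Mut and 2.69 (1.79 to 4.15) in those of WT, and of 2.0 in astroglia of Mut and 2.11 in those of WT. Ift27 had 2.18 in oligodendrocyte precursors of Mut and 1.95 in those of WT. Kif3a leaned the other way without passing in both libraries, at 0.645 of the non-dividing level in GABAergic neurons of Mut and 0.722 in those of WT. Of the 63 other ciliary genes, 61 had enough UMIs in astroglia, 56 in oligodendrocyte precursors and 48 in GABAergic neurons. In dividing barcodes 12, 10 and 13 were past 1.5-fold higher in these classes, against 7.11%, 6.84% and 11% of all genes. Those higher in all 3 classes were the centrosomal genes Pcnt, Cntrl, Cep128, Cep72, Ccp110 and Cep89 and the transition zone gene Tmem107. Kifap3 and Kif3c, a further pair of kinesin-2 subunits, were lower in GABAergic neurons, where 9.69% of all genes were.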

How the data were processed

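Both libraries were deposited by the authors as raw UMI counts per gene and barcode, 32285 genes by all barcodes. The matrices come from Cell Ranger 4, per the file headers, and GRCm38 with STAR is named in the submitters' processing notes. Annotation release and kit chemistry are not given in the sources used here. Deposited files hold 97891513 UMIs in Mut and 93664707 in WT. UMIs were summed by class and library and given as CPM, with exact Poisson intervals for levels and exact conditional binomial intervals for ratios (Python 3.11.15, scipy 1.17.1, pandas 2.3.3). Other classes were the one with most markers, at least 3 and at least 2 more than any other class; 981 barcodes of Mut and 1138 of WT stayed unassigned. No doublets were removed for the reported values, so assigned classes hold barcodes that Scrublet marked, and the multiciliated rule asks for no lead over other classes; Scrublet removal (scanpy 1.11.5) and TMM scaling (edgeR 4.0.16) served as alternatives. The comparison of Mut with WT, in astroglia and endothelial cells, and that of multiciliated barcodes were tested on simulated counts. The other calculations were not. Mut and WT were compared in classes with at least 100 barcodes in each library and genes with at least 30 UMIs; dividing and non-dividing barcodes needed 50 barcodes each. Levels in other classes were compared with astroglia for genes with at least 100 UMIs there in each library. All 42 genes could be named; other ciliary genes were named where past the fold, and the text gives a selection. The comparison with astroglia, the second filter for multiciliated barcodes and the 5 glial genes were added after values had been seen. The genes and lists were chosen with earlier results of these data known. Gene positions came from GENCODE M21 on GRCm38, which holds 32158 of the 32285 identifiers. Exons of 3 of the 42 genes (Kif17, Rpgr, Ttbk2) overlap another counted gene on the same strand and those of 8 on the opposite strand, so their counts are less certain; whether counting used strand is not stated.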

Additional observations from a re-analysis of the deposited data

Results flagged for a closer look

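Bbs9, the BBSome subunit, differed between the libraries in Cajal-Retzius barcodes, which were too few for the comparisons above. It had 1 UMI in 1 of 43 barcodes of Mut, 2.99 CPM (0.0758 to 16.7), and 36 UMIs in 18 of 51 barcodes of WT, 72.3 CPM (50.7 to 100.1), with at most 6 UMIs in a barcode. The ratio of Mut over WT was 0.0414 (0.00102 to 0.246). Bbs9 stood at 5.81 CPM in free RNA of Mut and 6.33 CPM in that of WT. It was picked out of all pairs of the 42 genes and the small classes for its size, there is 1 library per genotype, and its cause was not tested.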

How the results depend on the processing

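The comparisons rest on 1 library per genotype, and depth limits the small classes, 21 and 15 multiciliated barcodes above all. No paired analysis was possible because each genotype has 1 library. Of 40 recomputed counts, 32 stayed within 1.5 times the reported ones and 8 did not. They do not ask for the same genes, and the share over all genes was not taken for them. The counts for Mut against WT and for dividing barcodes join both directions. Among the 32 is the dividing comparison thinned to 1000 UMIs, with 9 pairs, 5 higher and 4 lower, against 13 as reported, all higher. Thinned to 1000 UMIs, 10 of the 42 genes had enough UMIs in multiciliated barcodes and 10 were higher, against 39 as reported, and 13 of 22 were lower in microglia, against 20 of 41; fewer genes were measured. Against 5 pairs past 1.5-fold between Mut and WT as reported, 1 passed under a stricter marker rule and 2 with the highest doublet scores removed, with 1 of the 5 among them each time. Both settings left 6 classes, without border-associated macrophages, so the 3 pairs there were not measured. The count was 15 with 1 CPM added (14 higher in Mut), 11 with at least 10 UMIs (8 higher), 2 in 5 classes of barcodes with Xist only (0 higher, 0 of the 5) and 0 in 4 classes of barcodes with Y-linked UMIs only, where fewer barcodes were left. Thinned it was 4, with 0 of the 5, which then had under 30 UMIs each. Also thinned, Cep290 in mural cells turned to a log2 ratio of -0.82, while the others of the 5 stayed higher in Mut. TMM and median-of-ratios scaling kept the same 5 pairs. The alternatives for classes against astroglia, and those against astroglia only (38 of 40 higher) or without barcodes with at least 4 dividing markers, were chosen after seeing the data. Causes of these shifts were not tested beyond the loss of UMIs and barcodes that the settings bring.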
